A study of Mus musculus with 6 samples.

Results

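The 10 genes described here regulate how keratinocytes commit to and complete their differentiation, and they were followed in neonatal mouse skin. They are Trp63, Klf4, Klf5, Ovol1, Grhl1, Grhl3, Gata3, Prdm1, Notch3 and Cebpb. Members were taken by name, as the probe sets whose platform annotation gives exactly 1 gene symbol, that of a member. All 10 genes were found, with 19 probe sets of the 45037 tested, and every probe set was kept. The samples were back skin, taken whole at postnatal day 2.5 from 6 female littermates of 1 litter, each hybridised to 1 expression array. The 3 caNrf2 mice, labelled K5cre-caNrf2 (tg/tg), combined a constitutively active Nrf2 (caNrf2) with the Cre recombinase under the promoter of keratin 5, a keratin of the basal layer and the outer root sheath. The 3 control mice, labelled K5cre-wt (tg/wt), are read here as carrying the Cre transgene without caNrf2. The strain background, FVB/N and C57BL/6 mixed, was common to both groups. The labels also describe both groups with the word "weak", which they do not explain. Since Cre acts in keratinocytes while the RNA came from whole skin, transcripts of dermis, fat, muscle and vessels were measured together with those of the epidermis.

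Stratified epidermis is renewed by basal keratinocytes that leave the basement membrane, become spinous and then granular cells, and end as dead cornified cells. Trp63 encodes p63, which sets up and maintains the stratified epithelial lineage. Klf4, Grhl3, Grhl1 and Prdm1 (Blimp1) act in the upper layers, where the barrier genes are switched on, and Klf5 acts mainly in the lower, proliferating layers. Ovol1 restrains proliferation as cells leave the basal state, Notch3 is one of the Notch receptors through which neighbouring cells drive the switch to spinous fate, and Cebpb encodes a leucine zipper factor of early suprabasal cells. Gata3 serves both the barrier and the inner root sheath of the hair follicle. Nrf2 itself switches on antioxidant and detoxification genes through antioxidant response elements in DNA.

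None of the 19 probe sets of these regulators passed the test between caNrf2 and control skin. The smallest adjusted p was 0.412 (limma, Benjamini-Hochberg over all 45037 probe sets, threshold 0.05), and 0.240% of all probe sets were called, 102 higher and 6 lower in caNrf2 skin. Values are log2 of the RMA intensity, and a difference is caNrf2 minus control. The mean was higher in caNrf2 skin for 15 probe sets and lower for 4, with differences from -0.08 to 0.23 and a median of 0.06, beside a median of -0.004 over all probe sets. At an unadjusted p under 0.05 there were 4 member probe sets, 2 of Trp63 and 2 of Klf5, each higher in caNrf2 skin; 4.01% of all probe sets were higher at that level. All 3 caNrf2 arrays lay above all 3 control arrays for 6 member probe sets, and for none did they lie below. Over all probe sets, 6.90% were higher without overlap. The 6 were spread over Trp63 (2 probe sets), Klf5 (2), Klf4 (1) and Grhl3 (1), and probe sets of the same gene are not separate observations. The 95% intervals of the 19 differences, each taken on its own, ran from -0.28 at the lowest bound to 0.39 at the highest, or 0.823-fold to 1.31-fold. Larger changes of the array signal of whole skin thus lay outside every interval. The animals were separate mice, and 3 arrays per group limit the precision.

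**Figure D1:**
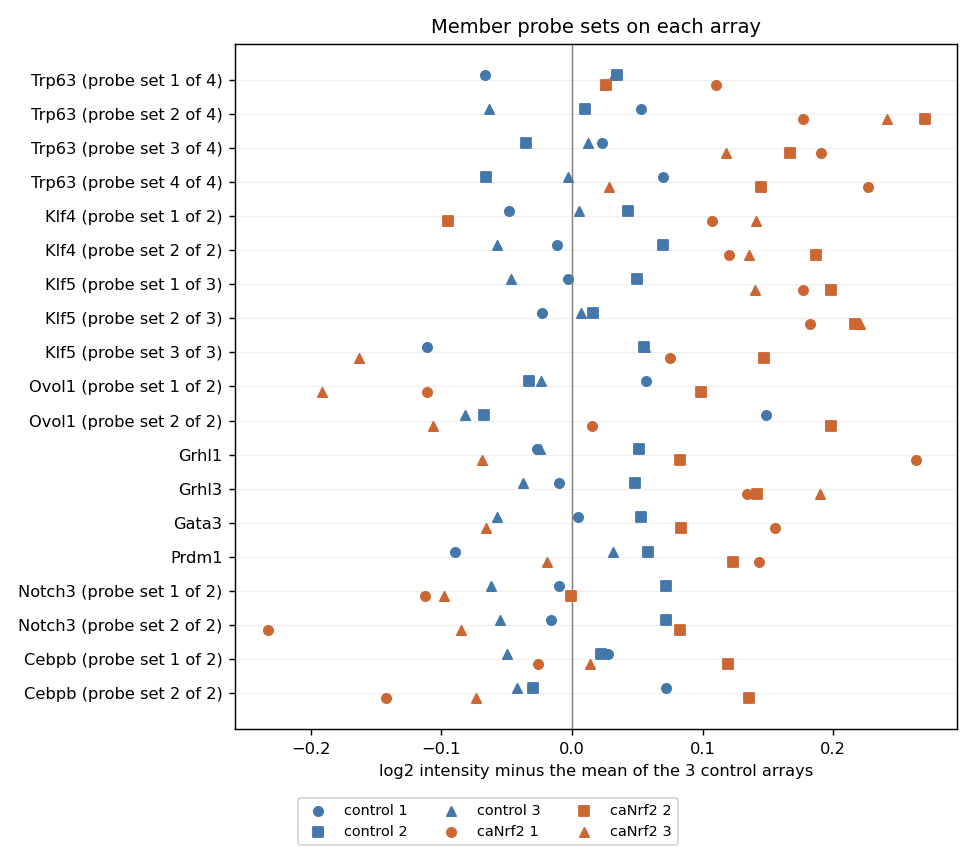
Log2 intensity of each member probe set on each of the 6 arrays, minus the mean of the 3 control arrays; blue symbols are control arrays, orange symbols caNrf2 arrays, and the shape gives the replicate. Probe sets of a gene are ordered from the brightest to the dimmest. For 2 probe sets of Trp63, 2 of Klf5, 1 of Klf4 and that of Grhl3 the orange symbols all lie to the right of the blue ones, while those of Ovol1 and Cebpb lie on both sides.

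The genotype was visible on the same arrays in the genes that Nrf2 is known to control. Of 12 such genes (Nqo1, Gclc, Gclm, Srxn1 and others), 10 rose and all 12 separated the groups. Nfe2l2, the gene of Nrf2, had a mean of 9.39 ± 0.03 on control arrays against 9.81 ± 0.09 on caNrf2 arrays (SD, n = 3) without passing (limma adjusted p = 0.0812), and whether its probes detect the transgene was not tested. The tissue carried its defining keratinocyte markers: all 8 (Krt5, Krt14, Krt1, Krt10, Dsp, Cdh1, Epcam and Lor) had mean levels between 11.48 and 14.29, with differences from -0.06 to 0.04, and none was called. Their summed intensity was 96699 to 99536 units on the control arrays and 96996 to 99920 on the caNrf2 arrays. Markers of endothelium, macrophages, fibroblasts, melanocytes and skeletal muscle held no called gene either, with medians of -0.07, 0.01, 0.003, -0.03 and 0.02. In whole skin, fewer cells of a type and less RNA per cell cannot be told apart. The spread of the member probe sets was larger in caNrf2 skin, with a median SD of 0.09 against 0.06 in control skin, and over all probe sets these medians were 0.11 and 0.08.

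Trp63 was represented by 4 probe sets, each with a higher mean in caNrf2 skin. The brightest, 1418158_at, read 11.38, 11.48 and 11.48 on control arrays 1 to 3 and 11.56, 11.47 and 11.47 on caNrf2 arrays 1 to 3. The groups overlapped, and the difference was 0.05 ± 0.07 (SE; limma adjusted p = 0.874). The second, 1452027_a_at, showed the largest difference of all member probe sets. It read 8.40, 8.35 and 8.28 in control skin and 8.52, 8.61 and 8.58 in caNrf2 skin, so that the groups were apart. The difference was 0.23 ± 0.07, a 1.17-fold level (95% interval 1.05 to 1.31), with a limma adjusted p of 0.412. Probe set 1451876_a_at also separated the groups, at 8.30, 8.24 and 8.28 against 8.46, 8.44 and 8.39, by 0.16 ± 0.07 (limma adjusted p = 0.561). Probe set 1459581_at overlapped, at 8.31, 8.17 and 8.23 against 8.46, 8.38 and 8.27, and differed by 0.13 ± 0.08 (limma adjusted p = 0.665). Trp63 is transcribed from alternative promoters and spliced into several forms. Which form each probe set detects was not analysed here, and the difference between the brightest probe set and the other 3 was not tested.

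Basal genes with known ties to Trp63 held no called gene. Of 24 listed genes 23 were measured, with a median difference of 0.04 beside -0.01 over all 18193 genes (each gene by its brightest probe set; 59 genes, 0.324%, were called). The differences ran from -0.25 to 0.15. In caNrf2 skin 3 of these genes were higher and 1 lower without overlap, beside 13.1% of all genes in either direction. The basal keratins Krt5 and Krt14 differed by 0.03 and 0.03. Fgfr3, a growth factor receptor, had the smallest p of the list at -0.25 ± 0.08 (limma adjusted p = 0.373), and Wnt10a, which encodes a Wnt ligand of skin appendages, followed at -0.20 ± 0.09 (limma adjusted p = 0.559). The integrins Itgb1 and Itga6, which hold basal cells on the basement membrane, were higher without overlap, by 0.15 and 0.12. Of the related p53 family members, Trp73 differed by -0.05 ± 0.10, and Trp53 had no probe set annotated with its symbol alone.

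Klf5 was the member whose 2 well detected probe sets both separated the groups. Probe set 1451021_a_at read 11.45, 11.50 and 11.41 on control arrays and 11.63, 11.65 and 11.59 on caNrf2 arrays. The difference was 0.17 ± 0.07, a 1.13-fold level (95% interval 1.01 to 1.26; limma adjusted p = 0.533). Probe set 1451739_at read 8.16, 8.20 and 8.19 against 8.37, 8.40 and 8.41. With SDs of 0.02 in both groups it was the tightest of the member probe sets, and it differed by 0.21 ± 0.07 (limma adjusted p = 0.434). The third, 1430255_at, lay between 3.67 and 3.98 on all 6 arrays, a level at which only 13.6% of probe sets were dimmer. It was the only member probe set below the median level of 6.34, and it differed by 0.02 ± 0.10.

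Klf4 was measured by 2 bright probe sets that differed in how they ordered the arrays. Probe set 1417394_at read 12.16, 12.25 and 12.21 in control skin and 12.32, 12.11 and 12.35 in caNrf2 skin, where array 2 was the lowest of all 6. It differed by 0.05 ± 0.08 (limma adjusted p = 0.900). Probe set 1417395_at read 11.80, 11.88 and 11.76 against 11.93, 12.00 and 11.95, with array 2 the highest. The groups were apart there, by 0.15 ± 0.07 (limma adjusted p = 0.598; 95% interval of the fold 0.989 to 1.24).

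Among all Krüppel-like factors, zinc finger proteins that bind GC-rich and CACCC sequences, 16 of 17 listed genes were measured and none was called. Their median difference was 0.02, with 10 higher and 6 lower means. By the brightest probe set of each gene Klf6, a broadly expressed member, had the smallest p. Its 5 probe sets were all higher in caNrf2 skin, by 0.11 to 0.30, and the brightest read 9.71, 9.76 and 9.69 against 9.91, 9.89 and 9.96. That probe set differed by 0.20 ± 0.07 (limma adjusted p = 0.463). Klf14 was lower without overlap, by -0.19 ± 0.08 (limma adjusted p = 0.510), and Klf9, a glucocorticoid-responsive member, was higher without overlap by 0.13 ± 0.08 (limma adjusted p = 0.658). The other 12 (Klf1, Klf2, Klf3, Klf4, Klf7, Klf10, Klf11, Klf12, Klf13, Klf15, Klf16 and Klf17) overlapped by their brightest probe sets, with differences from -0.15 to 0.16. Dimmer probe sets did not always follow: one of Klf12 was lower without overlap by -0.36 ± 0.09 (limma adjusted p = 0.318), the smallest p of any probe set of this family, while the brightest of that gene was higher in mean by 0.16, and one of Klf3 was lower without overlap by -0.16 ± 0.08 (limma adjusted p = 0.587). Without overlap in either direction were 13.1% of all genes.

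Ovol1 did not separate the groups. Probe set 1419051_at read 10.02, 9.93 and 9.94 in control skin and 9.85, 10.06 and 9.77 in caNrf2 skin, so that the highest and the lowest value both came from caNrf2 arrays. The difference was -0.07 ± 0.09 (limma adjusted p = 0.864). The dimmer 1419052_at read 8.05, 7.84 and 7.82 against 7.92, 8.10 and 7.80, and differed the other way, by 0.04 ± 0.10 (limma adjusted p = 0.949). Ovol2, its close relative in epithelial cells, differed by -0.01 ± 0.08.

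Grhl3, a grainyhead factor needed for barrier formation and eyelid closure, read 8.79, 8.85 and 8.76 on control arrays and 8.93, 8.94 and 8.99 on caNrf2 arrays. All caNrf2 values were above all control values, and the difference was 0.16 ± 0.07, a 1.11-fold level (95% interval 0.998 to 1.24; limma adjusted p = 0.568). Grhl1, which supports desmosomal genes, read 10.73, 10.80 and 10.73 against 11.02, 10.84 and 10.68. Array 1 of the caNrf2 group was the highest and array 3 the lowest of all 6. The difference was 0.09 ± 0.09 (limma adjusted p = 0.812). Grhl2, the other member of this family and no member of the 10, was higher without overlap by only 0.06 ± 0.07 (limma adjusted p = 0.846). By the brightest probe set of each, all 3 family members thus had higher means in caNrf2 skin, and none was called. The dimmer Grhl2 probe sets overlapped and did not share a direction, with differences of -0.07, 0.01 and -0.13.

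Regulatory sequence from RefSeq (GRCm38.p6) was searched for the core of the antioxidant response element, TGACNNNGC, on both strands, because the mice differ in Nrf2 activity. The table holds windows from 250 bases before to 50 bases after a transcription start. It holds 8 such windows for 7 of the 10 members. One of them, that of Cebpb, holds the core, beside 12.4% of all 32851 windows in the table. It lies on the plus strand from position -7 to position 2 around the start, where position 1 is the first transcribed base. The GC box GGGCGG, the kind of sequence that Krüppel-like and Sp factors bind, was found in windows of 6 of these 7 members (Cebpb, Gata3, Grhl1, Grhl3, Klf4 and Notch3) and in 35.7% of all windows. The window of Grhl3, the 1 member with a window whose only probe set separated the groups, holds no antioxidant response element core and 1 GC box, on the opposite strand, from position -53 to -48. A match describes these letters and not a binding site. The sequence of Cebpb is shown for the only match to that core among the members, in capitals, and that of Grhl3 for the separated groups, with its GC box in capitals. Both read 5′ to 3′ on the strand of the gene, the first at chr2:167688665-167688916 (plus strand) and the second at chr4:135573633-135573882 (minus strand), and end at the start or at the end of the match.
Cebpb: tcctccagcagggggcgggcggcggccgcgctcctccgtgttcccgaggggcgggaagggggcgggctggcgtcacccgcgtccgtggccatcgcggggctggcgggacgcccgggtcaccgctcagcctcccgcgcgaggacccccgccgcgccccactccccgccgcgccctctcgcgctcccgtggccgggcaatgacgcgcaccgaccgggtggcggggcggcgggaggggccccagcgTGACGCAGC
Grhl3: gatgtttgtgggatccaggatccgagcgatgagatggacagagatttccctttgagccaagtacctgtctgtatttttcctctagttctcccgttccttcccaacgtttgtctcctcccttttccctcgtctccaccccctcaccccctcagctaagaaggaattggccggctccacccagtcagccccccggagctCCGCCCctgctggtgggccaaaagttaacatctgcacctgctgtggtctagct

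Cebpb, whose window holds that core, was measured by 2 probe sets that lay close to equal. Probe set 1418901_at read 11.92, 11.92 and 11.85 in control skin and 11.87, 12.01 and 11.91 in caNrf2 skin, a difference of 0.04 ± 0.08 (limma adjusted p = 0.930). Probe set 1427844_a_at read 10.33, 10.23 and 10.22 against 10.12, 10.40 and 10.19, a difference of -0.03 ± 0.09 (limma adjusted p = 0.960). Both groups overlapped on both probe sets, and caNrf2 array 2 was the highest of the 6 on each. The 95% intervals of the fold were 0.913 to 1.15 and 0.857 to 1.12. Of its family, Cebpg and Cebpd differed by 0.05 and -0.03 on their brightest probe sets. A dimmer Cebpg probe set was higher without overlap by 0.15 ± 0.08 (limma adjusted p = 0.607), and another overlapped and differed by 0.03. Cebpa, which acts with Cebpb in keratinocytes and also marks adipocytes, differed by -0.15 ± 0.09 (limma adjusted p = 0.646). Markers of adipocytes also had lower means, all 6 measured of 8: none was called, the median was -0.07, and their summed intensity was 26320 to 28884 units on the control arrays and 26080 to 26730 on the caNrf2 arrays. Their part in the Cebpa value was not tested.

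**Figure D2:**
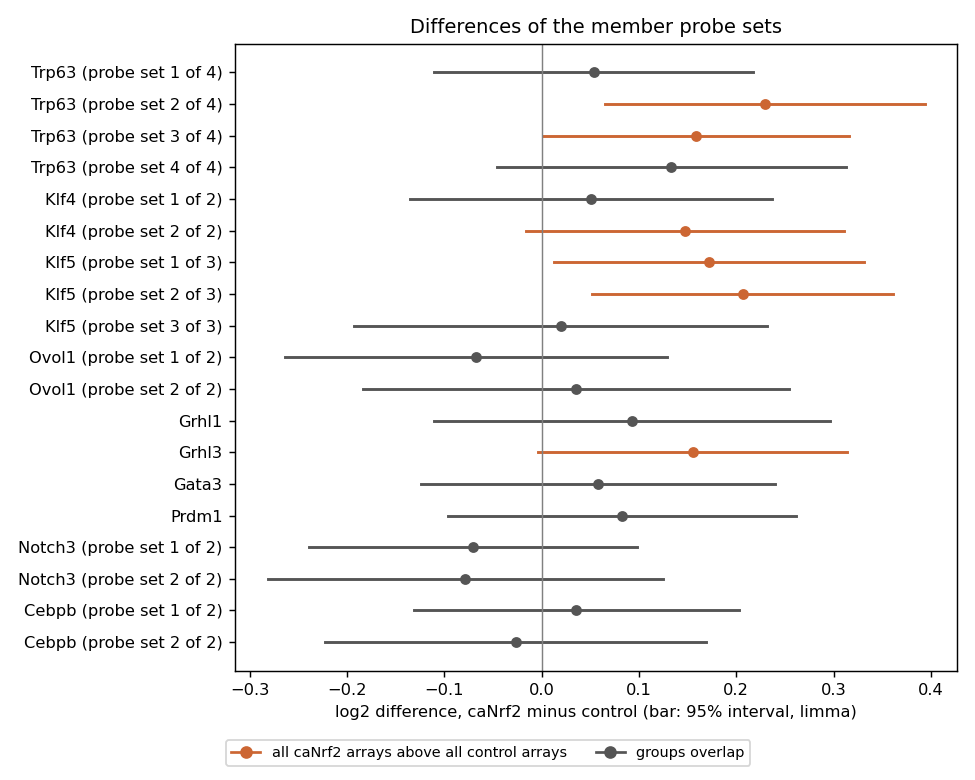
Log2 difference, caNrf2 minus control, of the 19 member probe sets, with 95% intervals from the limma fit over all probe sets; orange marks probe sets whose groups do not overlap. The orange points lie between 0.15 and 0.23, and the intervals of 4 of them exclude 0 before any adjustment.

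Gata3, with 1 probe set (1448886_at), read 10.01, 10.06 and 9.95 on control arrays and 10.16, 10.09 and 9.94 on caNrf2 arrays. The groups overlapped and the difference was 0.06 ± 0.08 (limma adjusted p = 0.879). Genes of the inner root sheath, where Gata3 is active, were lower in mean for 8 of 9 measured genes, with a median of -0.05 and none called. Their summed intensity ran from 52469 to 53512 units on the control arrays and from 44229 to 60076 on the caNrf2 arrays. This sum, in which the brightest genes weigh most, thus ranged more widely over the caNrf2 arrays. The difference in spread was not tested, and over all probe sets the median SD was also larger in caNrf2 skin (0.11 against 0.08). Gata3 is also made in T cells, whose markers were lower in 5 of the 6 measured of 8, none called, with a median of -0.13. Of these, Cd3d, Cd3e, Cd3g and Cd247, parts of the T cell receptor complex, had mean levels between 4.06 and 6.95 in either group. Summed intensities of the 6 were 1158 to 1280 units in control and 1104 to 1227 in caNrf2 skin, and their part in the Gata3 value was not tested. The brightest of the 6, not a part of that complex, had a mean level of 9.86 and weighed most in these sums.

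The other Gata factors held no called gene. Gata2, a factor of blood and endothelial lineages that is also found in skin, had the smallest p of the family. It was lower without overlap at 8.36, 8.38 and 8.35 against 8.22, 8.05 and 8.09, by -0.24 ± 0.08 (limma adjusted p = 0.399), while its dimmer probe set differed by -0.10. Gata1, Gata4, Gata5 and Gata6 differed by -0.21, 0.14, -0.13 and -0.02, and Gata1, Gata4 and Gata5 were dimmer than the median probe set.

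Prdm1, with 1 probe set (1420425_at), read 9.58, 9.72 and 9.70 against 9.81, 9.79 and 9.65. Arrays 1 and 2 of the caNrf2 group were above every control array and array 3 was not, and the difference was 0.08 ± 0.08 (limma adjusted p = 0.809). Of the Prdm family, with Prdm1 itself counted, 10 of 13 listed genes were measured and none was called. By the brightest probe sets, Prdm2, with the smallest p, differed by 0.13 ± 0.08 (limma adjusted p = 0.670), and Prdm8 by -0.17 ± 0.13 (limma adjusted p = 0.725). A dimmer Prdm2 probe set was higher without overlap by 0.19 ± 0.08 (limma adjusted p = 0.511), and another overlapped and differed by -0.006. Prdm1 is also known from the sebaceous gland. Of 9 measured genes of that gland, 7 had lower means, with a median of -0.16, and 1 fell, the desaturase Scd3, from 8.07 ± 0.18 to 7.26 ± 0.25 (limma adjusted p = 0.0331). That call was lost whichever array was left out (limma adjusted p 0.0532 to 0.170), while the difference of -0.81 stayed between -0.90 and -0.66. A second, dimmer Scd3 probe set was lower without overlap by -0.71 ± 0.13 and did not pass (limma adjusted p = 0.0861). The elongase Elovl3 and the lipid droplet gene Plin2 were lower without overlap, by -0.37 and -0.30, and did not pass. In the other direction, 1 gene of this list was higher without overlap and was not called, and the highest difference of the list was 0.19.

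Notch3 had lower means in caNrf2 skin on both probe sets. The brighter, 1421965_s_at, read 9.61, 9.69 and 9.55 on control arrays and 9.50, 9.62 and 9.52 on caNrf2 arrays. It differed by -0.07 ± 0.08, and the name ending _s_at marks a probe set that can bind more than 1 transcript (limma adjusted p = 0.834). The dimmer, 1421964_at, read 7.59, 7.68 and 7.55 against 7.38, 7.69 and 7.52, and differed by -0.08 ± 0.09 (limma adjusted p = 0.846). The groups overlapped on both. Notch3 is also the Notch receptor of pericytes and vascular smooth muscle. Their 10 markers were all measured, 6 lower and 4 higher in mean, none called, with a median of -0.02. Of these, Rgs5 and Pdgfrb differed by -0.10 and -0.08 and Acta2 by -0.01, and the highest difference among the 10 was 0.08. Summed intensities of the 10 were 11076 to 11843 units in control and 10916 to 11950 in caNrf2 skin, and their part in the Notch3 values was not tested.

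The rest of the Notch pathway held no called gene. Among the 9 receptors and ligands, all measured and with Notch3 itself counted, 4 means were higher and 5 lower, with a median of -0.06. Of the receptors, Notch1, the main one of epidermis, differed by -0.06 ± 0.08, Notch2 by 0.01 ± 0.07 and Notch4 by -0.10 ± 0.10. Of the ligands, Jag1 differed by 0.14, Jag2 by -0.10, Dll1 by 0.004 and Dll4 by 0.07, and Dll3, with the smallest p of the 9, by -0.14 at a level below the median probe set (limma adjusted p = 0.650). By its brightest probe set no receptor or ligand separated the groups; a second, dim Notch4 probe set was lower without overlap, by -0.16 ± 0.08 (limma adjusted p = 0.600). Of 17 genes that process or modify Notch, 15 were measured, with a median of -0.04. The smallest p belonged to Mfng, a glycosyltransferase that modifies Notch, which was lower without overlap by -0.26 ± 0.09 (limma adjusted p = 0.428), and to Aph1a, a γ-secretase subunit, at 0.31 ± 0.15 with overlap (limma adjusted p = 0.577). The name of that Aph1a probe set also ends in _s_at, and the dimmer Aph1a probe sets differed by only 0.07 and 0.06. Targets of Notch were measured for 7 of 8 and had a median of 0.04. By the brightest probe sets, Hes5 and Hey2 were higher without overlap, by 0.23 ± 0.08 and 0.15 ± 0.08 (limma adjusted p = 0.469 and 0.604), and Heyl was lower without overlap by -0.09 ± 0.07. A dimmer Hes5 probe set overlapped and differed by 0.03 ± 0.16, and Hey2 lay below the median probe set. Dimmer Heyl probe sets differed by -0.15, without overlap, and by -0.04. Cdkn1a, also of this list, overlapped on its brightest probe set and differed by 0.04. Its other probe set, at a level of 11.05, was higher without overlap by 0.20 ± 0.08 (limma adjusted p = 0.531). Hes1, the Notch target best known from spinous cells, overlapped and differed by 0.10 ± 0.08.

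Of 49 measured transcription regulators of epidermis besides the members (51 listed, with Hes1 of the Notch targets counted again), 1 was called. Ppard, which encodes the lipid-activated nuclear receptor PPARβ/δ known to favour keratinocyte differentiation, read 8.38, 8.32 and 8.34 on control arrays and 8.84, 9.07 and 8.90 on caNrf2 arrays. It rose by 0.59 ± 0.08, a 1.51-fold level (95% interval 1.33 to 1.71; limma adjusted p = 0.0120). The call was lost without any 1 of the control arrays, with limma adjusted p of 0.0693, 0.0928 and 0.0779 without control array 1, 2 and 3, while the difference stayed between 0.52 and 0.64 whichever array was left out. A second, dim Ppard probe set, between 5.21 and 5.67 on all arrays, differed by -0.004 ± 0.12. With the mean of both probe sets Ppard differed by 0.29 and was not called (limma adjusted p = 0.299). The median of the 49 was 0.02, with 27 means higher and 22 lower. Tfap2a, an AP-2 factor that acts beside p63 in the basal layer, was lower without overlap by -0.30 ± 0.08 (limma adjusted p = 0.298), and Rora, an orphan nuclear receptor of differentiating keratinocytes, was higher without overlap by 0.26 ± 0.07 (limma adjusted p = 0.335).

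Genes of the spinous and granular layers held no called gene either. Several of the granular genes have known ties to Klf4, Grhl1, Grhl3 or Gata3. All 11 spinous genes had higher means in caNrf2 skin, with a median of 0.06 and a range from 0.01 to 0.64, and 3 separated the groups (Krt77, Sfn and Dmkn). Krt77, a suprabasal keratin, stood apart from the rest. It read 10.48, 10.42 and 10.78 against 11.41, 11.33 and 10.86, with array 3 of the caNrf2 group close to the highest control array, and differed by 0.64 ± 0.14 (limma adjusted p = 0.181). Without that array the difference was 0.81 and passed (limma adjusted p = 0.0224). Krt1 and Krt10, the main keratins of these layers, differed by 0.01 and 0.01. Sfn, which encodes 14-3-3σ, differed by 0.22 ± 0.08 (limma adjusted p = 0.458). Of 20 measured granular genes 17 had higher means, with a median of 0.04. Tgm3, a transglutaminase, was higher without overlap by 0.25 ± 0.09 (limma adjusted p = 0.455), Alox12b, a lipoxygenase of the lipid barrier, differed by 0.17 ± 0.09 (limma adjusted p = 0.636), and Tgm1, a known target of Grhl3, by 0.02 ± 0.08. Filaggrin (Flg), loricrin (Lor) and involucrin (Ivl), the classical late markers, differed by 0.04, 0.04 and 0.01.

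**Figure D3:**
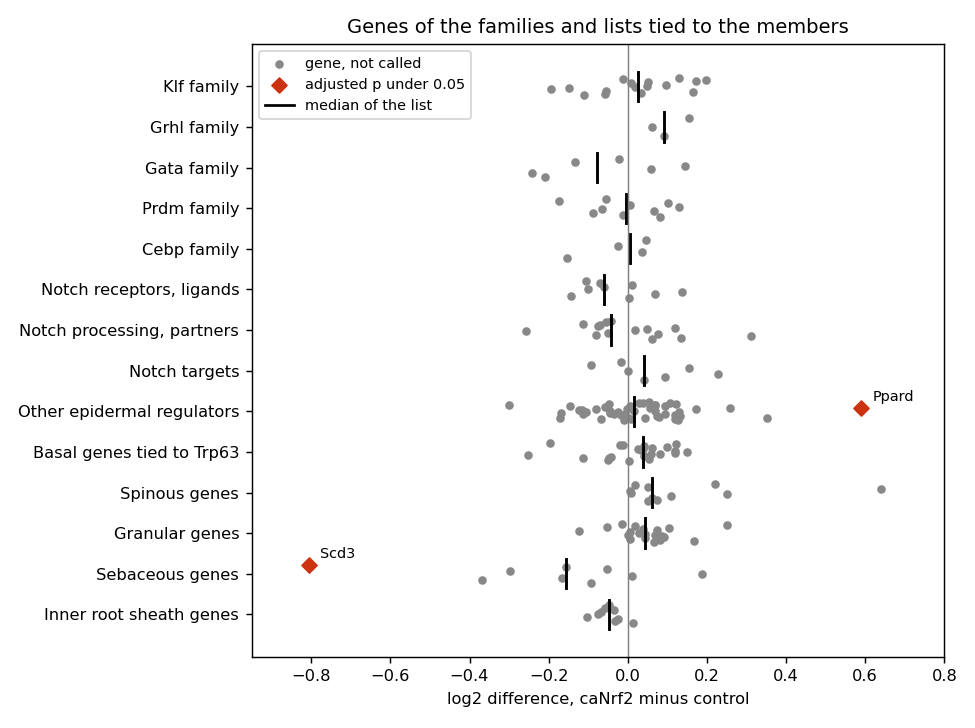
Log2 difference, caNrf2 minus control, of the genes in the families of the members, the Notch pathway and the lists of other regulators and layer genes, each gene by its brightest probe set; black bars are medians and red diamonds genes with a limma adjusted p under 0.05. Ppard at 0.59 and Scd3 at -0.81 are the only called genes, and the medians lie between -0.16 and 0.09.

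The arrays ordered the member probe sets unevenly. The highest of the 6 values came from caNrf2 array 2 for 9 of the 19 probe sets, from array 1 for 6 and from array 3 for 3, and from a control array for 1. Relative to the control mean, the member probe sets had a median of 0.12 on caNrf2 array 1, 0.14 on array 2 and 0.01 on array 3. The third caNrf2 array was thus the nearest to the control arrays for the median of these regulators, although it was above every control array for 7 of the 19 probe sets, 2 of Klf5, 2 of Trp63, both of Klf4 and that of Grhl3. Arrays 1 and 2 of that group were above every control array for 13 and 16 probe sets.

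Profiles over the 6 arrays were compared for the 3 members with the widest range on their brightest probe set, Grhl1 (range 0.33), Ovol1 (0.29) and Klf5 (0.25). The genes most like Grhl1 by Pearson correlation were Procr (r = 0.996), Acpp (0.985) and Npy (0.984). Those most like Ovol1 were Pkp3 (0.986), a desmosomal plakophilin, Vsig10l (0.984) and Adgrg1 (0.984). For Klf5 they were Paqr5 (0.990), Nudt5 (0.986) and Slc22a23 (0.981). These are the top of 5705, 8119 and 11270 probe sets with at least the range of the member, over 6 arrays that share 2 groups and 1 litter, and they are given as a description only.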

How the data were processed

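Expression was measured with Affymetrix arrays in 3 caNrf2 and 3 control mice; per the labels' protocols, cRNA was made from 2 µg of RNA. The deposited values are linear intensities, 1 per probe set and array, made by the authors with RMA (background correction, quantile normalisation and probe set summary) per the submitters' processing notes; no source used here names its software or version. RMA hides shifts shared by most genes and compresses folds near background. Intensities were converted to log2. After 64 Affymetrix controls were left out, 45037 probe sets remained; 34945 had 1 gene symbol, 932 several and 9160 none, and only the first were named.

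The 2 groups were the only term of a linear model across all probe sets (limma 3.58.1, lmFit and eBayes, R 4.3.3), with Benjamini-Hochberg adjustment over all probe sets. The fit was tested on simulated data. Lists used the brightest probe set of each gene. A listed gene with no probe set of its symbol alone was counted as not measured. Named were every member probe set, called list genes, otherwise the 2 list genes with the smallest p, and some others of known role, chosen after their values were seen. Members and lists were chosen with earlier results of these data known. Alternatives were a replicate block, leaving out each array, array weights, eBayes made robust or with a trend, a minimum level, median centring, renewed quantile normalisation, and 1 probe set or the mean of all per gene.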

Additional observations from a re-analysis of the deposited data

How the results depend on the processing

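None of the member probe sets was called under any of the 15 alternatives; the smallest adjusted p was 0.200, without caNrf2 array 1. Of 266 alternative values 10 had the opposite sign, all from probe sets with differences under 0.04: Klf5 1430255_at (-0.0448 with array weights), Ovol1 1419052_at (-0.000236 with array weights) and, with 1 array left out, these and both Cebpb probe sets. Leaving out arrays gave ranges of -0.0439 to 0.111 for that Klf5 probe set, -0.0458 to 0.110 for that Ovol1 probe set, -0.00617 to 0.0666 for Cebpb 1418901_at and -0.108 to 0.0308 for 1427844_a_at. The other 15 member probe sets kept their sign throughout, and the 6 without overlap numbered 6 after centring and after quantile normalisation. Over all probe sets 108 were called, against 68 with 1 probe set per gene and 63 with their mean, where fewer features were tested; leaving out arrays gave 64 to 136, with 69, 64 and 67 without control array 1, 2 and 3. The genes called in the lists numbered 2 (Ppard and Scd3), 0 with the mean of all probe sets and 0 to 2 with 1 array left out (0 without any 1 control array, 1, Ppard, without caNrf2 array 1 or 2, and 2, Ppard and Krt77, without caNrf2 array 3). With the replicate number as a block, 97 probe sets, 0 member probe sets and 2 list genes were called; same-numbered arrays did not deviate together (correlations of -0.15, -0.04 and 0.04), so the numbers were not taken as pairs. The number of arrays limits what can be seen: the intervals of the members leave room for changes from 0.823-fold to 1.31-fold in the array signal of whole skin.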
